A study of Mus musculus with 24 samples.

Results

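The levels of 10 protein-coding genes that flank Egr1 on mouse chromosome 18 were followed in hippocampal RNA-seq of 24 mice. They were taken by symbol as neighbours of the targeted gene and ordered by distance from it, and they make up 10 of the 36605 genes in the count table. The question was whether an allele that is modified at Egr1, or its recombination by Cre, goes with a change in the genes beside it. All 10 were detected in every mouse, with 250 counts or more, and all 10 passed the filter on low counts that left 19742 genes for testing.

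The mice fell into 4 genotypes with 6 mice each, 3 males and 3 females. Egr1wtNesCre- mice, labelled as complete wild type, carried neither modification. Egr1wtNesCre+ mice, the Cre control, carried the Nestin-Cre transgene of the strain B6.Cg-Tg(Nes-Cre)1Kln/J, in which the nestin promoter drives Cre in neural progenitors and their descendants. Egr1fNesCre- mice, the Egr1cKO control, carried the floxed allele of the strain Egr1_tm1a_A04, made on C57BL/6N, without Cre. Egr1fNesCre+ mice, the Egr1cKO group, carried both. The Egr1f and Egr1wt mice bore numbers from separate ranges, so an effect of the floxed allele and an effect of the series of mice cannot be told apart, whereas the contrasts of Cre+ with Cre- mice stay within 1 series. The contrasts below share mice, so they are not independent of each other.

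A targeted allele brings its surroundings along when it is bred, because genes close to it are seldom separated from it by recombination. Neighbouring genes can therefore carry sequence of the strain in which the allele was made, and elements placed in the targeted gene can act on genes nearby. EGR1 itself is a zinc finger transcription factor that neurons switch on rapidly with activity, and it is abundant in the adult hippocampus.

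Positions are given on GRCm38 (mm10), from GENCODE M21. Egr1 spans positions 34859823 to 34864984 of chromosome 18 on the plus strand. Towards lower coordinates lie Reep2 at 12.4 kb, Kdm3b at 21.2 kb, Fam53c at 86.1 kb, Cdc23 at 208 kb and Brd8 at 235 kb, each measured between gene bodies. Towards higher coordinates lie Etf1 at 37.8 kb, Hspa9 at 72.4 kb, Ctnna1 at 254 kb, Lrrtm2 at 344 kb and Sil1 at 401 kb. The outer members are Brd8, which starts at position 34598615, and Sil1, which ends at position 35499780. Lrrtm2 lies inside Ctnna1 on the opposite strand and shares 95 exonic bases with it. Kdm3b shares 3468 exonic bases with Gm26538, a lincRNA on the opposite strand that was not analysed here. Cdc23 shares 1271 exonic bases with Kif20a on the opposite strand, and Sil1 shares 108 and 88 with a pair of antisense genes. The libraries were non-stranded, so reads from such shared bases cannot be assigned to a strand. Kif20a was at a mean of only 1.37 CPM against 45.2 CPM for Cdc23, where CPM is the count of a gene relative to the size of its library after TMM scaling.

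Library totals ran from 18025168 to 34955004 counts. Markers of hippocampal excitatory neurons summed to between 1670 and 2490 CPM in every mouse. The labels call the cell type endocrine, but markers of pituitary endocrine cells summed to at most 3.84 CPM, with Fshb and Cga at 0 in 23 of the 24 mice. Markers of the choroid plexus, the tissue within the ventricles that makes cerebrospinal fluid, exceeded 100 CPM in 5 mice, among them an Egr1wtNesCre+ female at 2030 CPM. Nnt, which is partly deleted in C57BL/6J but intact in C57BL/6N mice, was between 0.0548 and 1.69 CPM, with a median of 0.654 CPM over the 24 mice.

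Egr1 marked the knockout as labelled. It averaged 108 ± 27.7 CPM (SD, n = 6) in Egr1wtNesCre-, 85.7 ± 28.2 CPM in Egr1wtNesCre+ and 93.5 ± 29.8 CPM in Egr1fNesCre- mice. In Egr1fNesCre+ mice it averaged 7.95 ± 1.93 CPM, and the highest of these mice, at 10.2 CPM, was below the lowest of the others, at 47.7 CPM. The log2 fold change (log2FC) of Egr1fNesCre+ against Egr1fNesCre- was -3.56 (SE 0.236, edgeR quasi-likelihood test, adjusted p = 2.47e-10). The floxed allele without Cre did not pass the test (log2FC -0.22, SE 0.203, adjusted p = 0.794).

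The neighbours spanned a wide range of levels and each varied little between mice. Per kilobase of exon, Reep2 was highest at 52.9 ± 5.17 CPM per kb (SD, 24 mice), a membrane protein that shapes the endoplasmic reticulum. Hspa9, the mitochondrial chaperone mortalin, followed at 43.8 ± 2.83, and the ranges of this pair overlapped. Etf1, the release factor that recognises stop codons, stood at 21.6 ± 1.71 and Fam53c at 19.2 ± 1.48, with overlapping ranges that lay apart from the genes above and below them. Lrrtm2, a postsynaptic adhesion protein that binds neurexins, was at 10.8 ± 1.24 CPM per kb, and Ctnna1, the catenin that links cadherins to actin, was at 9.13 ± 1.11. The lowest were Brd8, a bromodomain subunit of the TIP60 acetyltransferase complex, at 5.63 ± 0.357, Kdm3b, a histone demethylase of the jumonji family, at 4.80 ± 0.28, Cdc23, a subunit of the anaphase promoting complex, at 4.76 ± 0.27, and Sil1, the nucleotide exchange factor of the endoplasmic reticulum chaperone BiP, at 4.39 ± 0.475. Among these 4 the ranges of neighbours in the order overlapped, although Brd8 exceeded Kdm3b in each of the 24 mice. The length used merges all annotated exons of a gene, from 1926 bases for Reep2 to 14095 for Kdm3b, and the order depends on it. In CPM Hspa9 averaged 189 and Reep2 102, while Kdm3b averaged 67.7, Brd8 59.9, Cdc23 45.2 and Sil1 15.1. On the CPM scale the coefficient of variation over all mice was lowest for Cdc23, at 5.67%, and highest for Ctnna1, at 12.1%, while that of Egr1 was 62.3%.

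**Figure D1:**
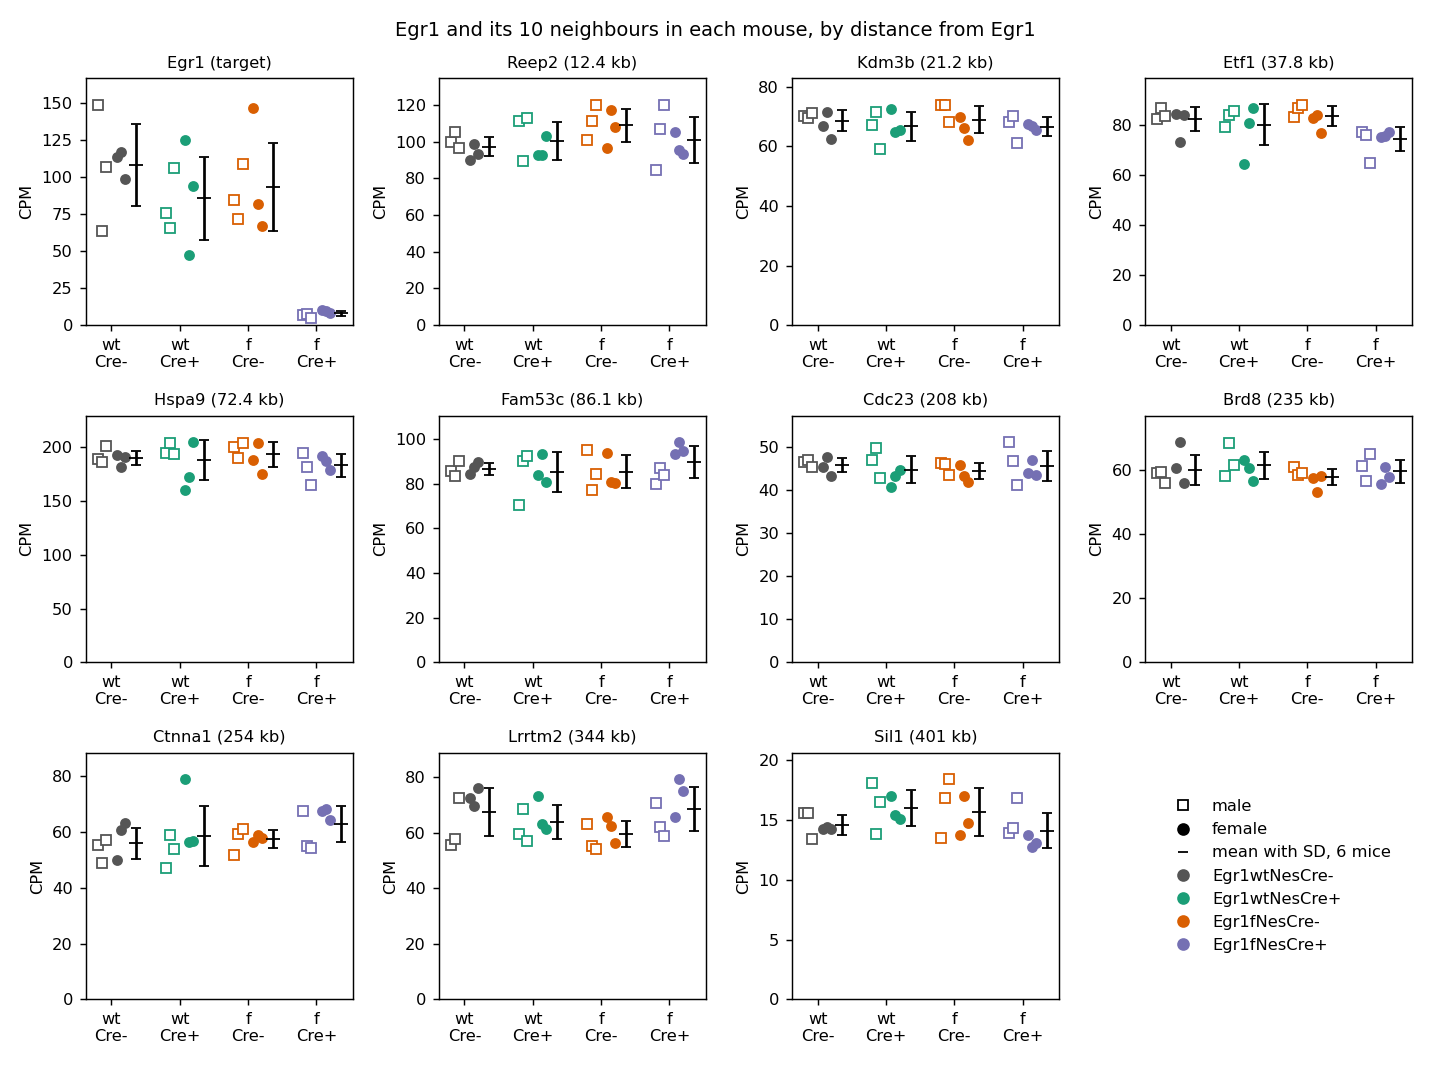
Level in CPM (y axis, from 0) of Egr1 and its 10 neighbours in each of the 24 mice, by genotype (x axis). Squares are males, circles are females, and bars are the mean with SD of 6 mice. Egr1 is at 4.86 to 10.2 CPM in the Egr1fNesCre+ mice and at 47.7 CPM or more in the others, while each neighbour has overlapping levels across the genotypes.

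The floxed allele without Cre was examined first, since Egr1 is not recombined there. None of the 10 neighbours was called different between Egr1fNesCre- and Egr1wtNesCre- mice at an adjusted p of at most 0.05 and a fold change of at least 1.2 (0 of 10, edgeR, against 0% of the 19742 genes tested). At an unadjusted p under 0.05 stood 2 of the 10, Reep2 and Lrrtm2, beside 1323 of all genes (6.7%). DESeq2 also called 0 of 10, and 0% of all genes. The median log2FC was 0.01 for the neighbours and 0.00 for all genes, and 6 of the 10 were above 0. All 10 had overlapping levels in the 2 genotypes, a description only, since the share of all genes with such overlap was not computed.

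Reep2, the closest gene to Egr1, was at 90.0 to 105 CPM in Egr1wtNesCre- mice with a median of 97.7, and at 96.3 to 120 CPM in Egr1fNesCre- mice with a median of 109. The 4 highest Egr1fNesCre- mice, at 108, 111, 117 and 120 CPM, lay above every Egr1wtNesCre- mouse, and the other 2 lay within their range. The log2FC was 0.16 (SE 0.0744, 95% interval 0.01 to 0.32, unadjusted p = 0.0379, adjusted p = 0.712, edgeR). With Cre in both arms Reep2 did not show this difference, at 84.7 to 120 CPM in Egr1fNesCre+ and 89.6 to 113 CPM in Egr1wtNesCre+ mice (log2FC 0.01, SE 0.0745, adjusted p = 0.981, edgeR).

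Lrrtm2 was at 55.4 to 76.1 CPM in Egr1wtNesCre- mice with a median of 71.0, and at 54.1 to 65.7 CPM in Egr1fNesCre- mice with a median of 59.4. In the wild type 4 mice were at 69.6 CPM or more, above all Egr1fNesCre- mice, while a pair of males at 55.4 and 57.6 CPM fell among them. The log2FC was -0.17 (SE 0.0756, interval -0.33 to -0.02, unadjusted p = 0.0307, adjusted p = 0.712, edgeR). Ctnna1, the gene that surrounds it, was at 0.05 (SE 0.0862, adjusted p = 0.911).

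Of the remaining close genes, Kdm3b had a log2FC of 0.01 (SE 0.0582), Etf1 of 0.02 (SE 0.0642), Hspa9 of 0.02 (SE 0.0607) and Fam53c of -0.02 (SE 0.0682). Kdm3b, whose body ends 21.2 kb from Egr1, averaged 68.6 ± 3.48 CPM in Egr1wtNesCre- and 68.9 ± 4.56 CPM in Egr1fNesCre- mice (SD, n = 6). Cdc23 and Brd8, the farther genes at lower coordinates, were at -0.05 (SE 0.0575) and -0.05 (SE 0.0601). Sil1, the farthest, was at 0.11 (SE 0.0883, interval -0.08 to 0.29). The 95% intervals of 7 of the 10 lay inside a fold change of 1.2 in either direction, and those of Reep2, Lrrtm2 and Sil1 did not.

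The same allele was compared where both arms carried Cre, so that the Egr1f arm had also lost Egr1. Again 0 of 10 neighbours were called between Egr1fNesCre+ and Egr1wtNesCre+ mice by edgeR or DESeq2. Of all genes edgeR called 0.00507%, which is Egr1 alone, and DESeq2 called 0.223%. Sil1 alone among the 10 had an unadjusted p under 0.05, as did 3026 of all genes (15.3%). It was at 13.8 to 18.1 CPM in Egr1wtNesCre+ mice with a median of 16.0, and at 12.7 to 16.8 CPM in Egr1fNesCre+ mice with a median of 13.8. All but 1 of the Egr1fNesCre+ mice were at 14.3 CPM or less, whereas 5 of the 6 Egr1wtNesCre+ mice were at 15.1 CPM or more, so the groups overlapped through a few mice. The log2FC was -0.19 (SE 0.0886, interval -0.37 to 0.00, unadjusted p = 0.0464, adjusted p = 0.32, edgeR). Without Cre the difference of Sil1 had the opposite sign, as given above.

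Over both Cre states, which sets all 12 Egr1f against all 12 Egr1wt mice, 0 of 10 neighbours were called by edgeR or DESeq2. Of all genes edgeR called 0.00507% (Egr1) and DESeq2 called 0.0101%. None of the 10 had an unadjusted p under 0.05 in edgeR, against 1086 of all genes (5.5%). Reep2 had the lowest p of the 10, with a log2FC of 0.08 (SE 0.0526, interval -0.02 to 0.19, unadjusted p = 0.121, adjusted p = 0.952, edgeR). Ctnna1 followed in size at 0.07 (SE 0.0609), and the other 8 were between -0.05 and 0.02. Here the intervals of all 10 lay between -0.17 and 0.20, which is a fold change between 0.89 and 1.15, so a change of 1.2-fold in this mean lay outside the interval of each gene. In the mean, differences of opposite sign in the Cre states cancel. Without and with Cre, Lrrtm2 was at -0.17 and 0.10 and Sil1 at 0.105 and -0.185. The standard error of the neighbours had a median of 0.0469, against 0.098 for all genes tested.

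The Egr1cKO mice were then compared with their floxed controls, which holds the inherited allele and the series of mice fixed. Cre differs here, and with it the recombination of the floxed allele and the level of Egr1. None of the neighbours was called (0 of 10 by edgeR and by DESeq2). Of all genes edgeR called 0.0304%, which are Egr1 and 5 others (Aqp4, Hapln1, C4b, Tnc and Hopx), none of them a neighbour. Aqp4 is on chromosome 18 too, at -19.4 Mb from Egr1, towards lower coordinates (log2FC 0.82, SE 0.11, adjusted p = 0.000523, edgeR). It was the only call among the 104 genes over 5 to 20 Mb from Egr1 (0.962%), against 0.0216% on other autosomes. Hapln1, C4b, Tnc and Hopx are on other autosomes. DESeq2 called 0.279% of all genes. Etf1 and Lrrtm2 had an unadjusted p under 0.05, 2 of 10, beside 15.4% of all genes. Of the 10, 5 were above 0 and 5 below, with a median log2FC of -0.01 and a median over all genes of -0.01.

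Etf1 was at 76.5 to 87.9 CPM in Egr1fNesCre- mice with a median of 83.4, and at 64.9 to 77.2 CPM in Egr1fNesCre+ mice with a median of 75.7. The groups overlapped only because 1 Egr1fNesCre- female, at 76.5 CPM, fell below a pair of Egr1fNesCre+ mice at 76.9 and 77.2 CPM. The log2FC was -0.17 (SE 0.0643, interval -0.30 to -0.04, unadjusted p = 0.015, adjusted p = 0.253, edgeR). It was -0.23 (SE 0.0879) in males alone and -0.09 (SE 0.0997) in females alone, with adjusted p-values of 0.943 and 0.692. Hspa9, the next gene along, was at -0.08 (SE 0.0607, adjusted p = 0.559). The levels of this adjacent pair correlated over the 24 mice, with a Pearson r of 0.79 on log2(CPM + 1) as a description of libraries that share depth scaling and tissue pieces.

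Lrrtm2 was at 54.1 to 65.7 CPM in Egr1fNesCre- and at 58.7 to 79.2 CPM in Egr1fNesCre+ mice, with medians of 59.4 and 68.1. The 3 highest Egr1fNesCre+ mice, at 70.7, 75.0 and 79.2 CPM, exceeded all floxed controls and the other 3 lay among them. The log2FC was 0.20 (SE 0.0755, interval 0.04 to 0.35, unadjusted p = 0.0138, adjusted p = 0.249, edgeR). Ctnna1 was at 0.12 (SE 0.086, adjusted p = 0.505), Sil1 at -0.15 (SE 0.0883, adjusted p = 0.398) and Reep2 at -0.11 (SE 0.0743, adjusted p = 0.47). The remaining 5 neighbours were between -0.08 and 0.07.

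The Nestin-Cre transgene with the wild-type allele gave the background to this contrast. Between Egr1wtNesCre+ and Egr1wtNesCre- mice 0 of 10 neighbours were called by edgeR or DESeq2, against 0% of all genes by edgeR and 0.0507% by DESeq2. None of the 10 had an unadjusted p under 0.05 in edgeR, against 1168 of all genes (5.92%). Sil1 had the largest log2FC of the 10, at 0.14 (SE 0.0886, interval -0.05 to 0.32), and the other 9 were between -0.08 and 0.07. Etf1 was at -0.04 (SE 0.0643) and Lrrtm2 at -0.08 (SE 0.0757).

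Whether the Cre difference depended on the allele was tested as the interaction of floxP and Cre, which is free of a difference between the 2 series of mice. It called 0 of 10 neighbours by edgeR and by DESeq2. Of all genes edgeR called 0.00507% (Egr1, log2 difference -3.22, SE 0.307, adjusted p = 1.04e-06, edgeR) and DESeq2 called 1.15%. Lrrtm2 was at 0.27 (SE 0.107, interval 0.05 to 0.49, unadjusted p = 0.0164, adjusted p = 0.187, edgeR) and Sil1 at -0.29 (SE 0.125, interval -0.55 to -0.03, unadjusted p = 0.0283, adjusted p = 0.22, edgeR). These were 2 of 10 at an unadjusted p under 0.05, where 18.4% of all genes were. Reep2 was at -0.16 (SE 0.105), Etf1 at -0.13 (SE 0.0909), Fam53c at 0.09 (SE 0.0966), Cdc23 at 0.07 (SE 0.0814) and Hspa9 at -0.06 (SE 0.0858). Kdm3b and Brd8 were nearest to 0, at -0.01 (SE 0.0824) and 0.01 (SE 0.085). The intervals of 4 of the 10 lay inside a fold change of 1.2.

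Leaving out 1 mouse, the second Egr1wtNesCre+ male, raised the calls over all genes from 1 to 1439 for the interaction (6.97% of genes) and from 1 to 982 with Cre in both arms (4.76%), and still called 0 of the 10 neighbours in either. Without this mouse the interaction of Lrrtm2 was 0.33 (SE 0.106, adjusted p = 0.0584) and that of Sil1 was -0.33 (SE 0.122, adjusted p = 0.102), the former being the lowest adjusted p of any neighbour under any alternative run. With Cre in both arms Sil1 was then at -0.22 (SE 0.0887, adjusted p = 0.137).

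The difference between Egr1f and Egr1wt mice did not depend detectably on sex for any neighbour. Called were 0 of 10 by edgeR and by DESeq2, against 0% of all genes by edgeR and 0.0253% by DESeq2. In edgeR 0 of 10 had an unadjusted p under 0.05, beside 907 of all genes (4.59%). The female minus male values of the 10 lay between -0.10 and 0.07, and the widest interval was that of Sil1, from -0.37 to 0.17.

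**Figure D2:**
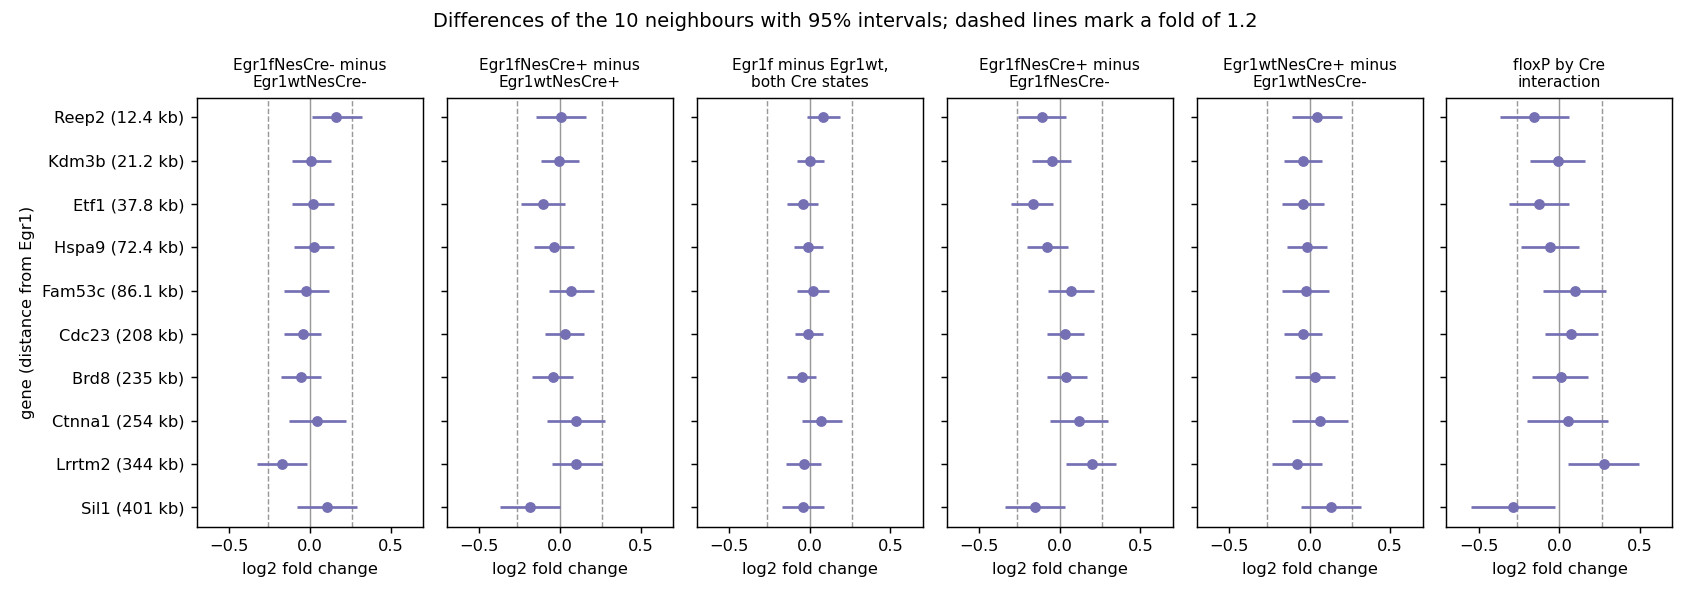
Log2 fold change (x axis) of the 10 neighbours, ordered by distance from Egr1 (y axis), in 6 contrasts, with points for the estimate and lines for the 95% interval from edgeR. Dashed lines mark a fold change of 1.2. In the panel over both Cre states every interval lies between the dashed lines, and of the 6 panels the interaction has the widest intervals, with Lrrtm2 at 0.27 and Sil1 at -0.29.

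Reep2, Lrrtm2 and Sil1, the neighbours farthest from 0 without Cre, were also those with the largest correlations in size with a GC index. The index is computed from gene levels, and what moves it was not tested. A GC index was taken for each mouse as the median deviation of genes with at least 55.1% GC minus that of genes with at most 43.3% GC, in log2 units. Its median was -0.04 in Egr1wtNesCre-, 0.01 in Egr1wtNesCre+, 0.11 in Egr1fNesCre- and -0.05 in Egr1fNesCre+ mice, with overlapping ranges. Over the 24 mice Reep2, with 58.6% GC in its exons, had a Pearson r of 0.88 with this index. Sil1, with 55.4% GC, had an r of 0.64, and Lrrtm2, with 38.4% GC the poorest of the 10, had an r of -0.73. Etf1 and Hspa9 were at 0.03 and 0.02. Cdc23 was at -0.48 with 47.1% GC, Fam53c at -0.39 with 53.4% and Kdm3b at -0.22 with 53.1%. Brd8 and Ctnna1 were at -0.24 and -0.12. These are descriptions over libraries whose levels also enter the index, and 11.4% of all genes had an r of 0.5 or more and 10.5% an r of -0.5 or less.

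The index was also used as a covariate, an alternative chosen after seeing the data. It is made from the same levels, and its median differed between genotypes, at -0.04 in Egr1wtNesCre- and 0.11 in Egr1fNesCre- mice. The covariate can therefore take out a genotype difference of any source, and the source was not tested. With it the Reep2 difference without Cre went from 0.16 to -0.01 (SE 0.0551, interval -0.12 to 0.10) and that of Lrrtm2 from -0.17 to -0.03 (SE 0.0658, interval -0.16 to 0.11). In Egr1cKO mice against floxed controls Lrrtm2 went from 0.20 to 0.08 (SE 0.0624) and Reep2 from -0.11 to 0.02 (SE 0.0523). The interactions of Lrrtm2 and Sil1 became 0.11 (SE 0.0886) and -0.13 (SE 0.119). Such a drop was not particular to the neighbours. Over all genes, the number at an unadjusted p under 0.05 in edgeR fell from 1323 to 481 without Cre. It fell from 3047 to 1105 for Egr1cKO against floxed controls and from 3637 to 1193 for the interaction. With Cre in both arms it rose from 3026 to 3309, and over both Cre states from 1086 to 2118. Etf1 in Egr1cKO mice against floxed controls was -0.19 (SE 0.0687, unadjusted p = 0.0113, adjusted p = 0.863, edgeR), and Sil1 with Cre in both arms was -0.17 (SE 0.076, unadjusted p = 0.0379, adjusted p = 0.263, edgeR), so these values stayed close to those without the covariate.

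**Figure D3:**
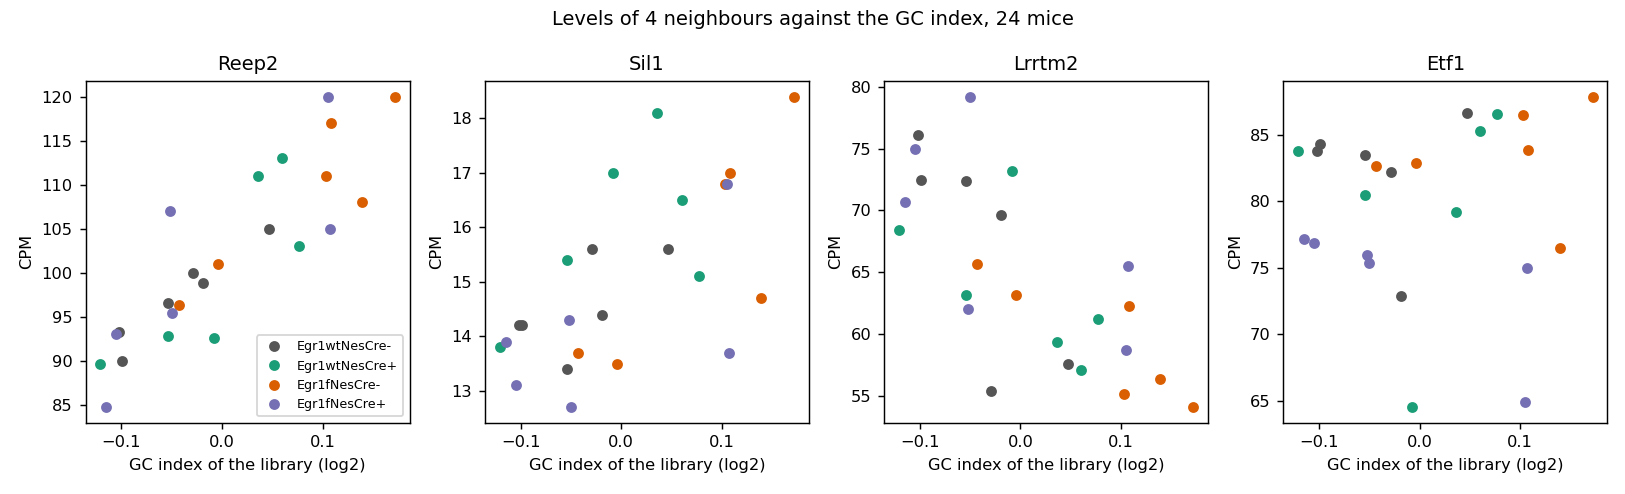
Level in CPM (y axes, not from 0) of Reep2, Sil1, Lrrtm2 and Etf1 against the GC index of each library (x axis, log2), with 1 point per mouse coloured by genotype. Reep2 and Sil1 are higher and Lrrtm2 lower in libraries with a high index, with r of 0.88, 0.64 and -0.73, and Etf1 has an r of 0.03.

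Among the neighbours the levels of Reep2 and Lrrtm2 ran opposite to each other over the 24 mice (r = -0.76), and those of Reep2 and Sil1 ran together (r = 0.68). The genes elsewhere in the genome most like Reep2, the neighbour with the lowest p over both Cre states, were Ehmt2 (r = 0.93), Ssbp4 (r = 0.91) and Bax (r = 0.87), and those most opposed were Clasp2 (r = -0.88), Cdh12 (r = -0.87) and Crebrf (r = -0.86). None of these 6 is on chromosome 18.

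Ctnna1 had its highest level, 78.9 CPM, in the Egr1wtNesCre+ female with 2030 CPM of choroid plexus markers, where Etf1 had its lowest level, 64.5 CPM. In the other 4 mice above 100 CPM of these markers Ctnna1 was at 54.0, 59.4, 61.1 and 54.8 CPM, within the range of the rest. Without these 5 mice, an alternative also chosen after seeing the data, the log2FC of Ctnna1 rose from 0.10 to 0.23 with Cre in both arms (adjusted p = 0.285) and from 0.12 to 0.22 for Egr1cKO against floxed controls (adjusted p = 0.535). The part of the choroid plexus in these values was not tested otherwise, and in such tissue samples more cells of a type and more RNA per cell cannot be told apart.

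The wider surroundings of Egr1 gave the neighbours a scale. Within 1 Mb of Egr1 the count table held 54 genes, of which 38 were tested and 0 were called in any of the 7 contrasts by edgeR. The 38 include the 10 neighbours, so the window is not separate from them. At an unadjusted p under 0.05 were 4 of the 38 for the floxed allele without Cre, beside 6.7% of all genes. With Cre there were 6, beside 15.3%, and over both states 1, beside 5.5%. Egr1cKO against floxed controls had 5, beside 15.4%, and Cre alone had 1, beside 5.92%. The interaction had 6, beside 18.4%, and the dependence on sex 1, beside 4.59%. Of the genes nearest to Egr1 that are not among the 10, Cdc25c, a cell cycle phosphatase, averaged 0.364 CPM, and Gm22200 and Gm26109, snoRNAs inside Hspa9, averaged 0.295 and 0.324 CPM, too low for a precise comparison.

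In the band from over 1 to 5 Mb, 131 genes were tested and 0 were called by edgeR in the fit of all mice. Over both Cre states 66 of them were above 0 and 65 below, with a median log2FC of 0.00, whereas for Egr1cKO against floxed controls 86 were above 0 and 45 below, with a median of 0.12. In the same Egr1cKO contrast 72 of 104 genes over 5 to 20 Mb from Egr1 were above 0 (median 0.103). Farther than 20 Mb 145 of 248 were (median 0.046). Within 1 Mb 14 of 38 were above 0 (median -0.074), and on other autosomes 8762 of 18535 (median -0.015). The band from over 1 to 5 Mb holds the clustered protocadherins, cell surface adhesion proteins that neurons express in varied combinations. A split made after seeing the data put the shift of this band, though not that farther out, in these genes. For Egr1cKO against floxed controls 48 of the 54 tested were above 0, with a median of 0.34, and the other 77 genes of the band had a median of -0.00. For Cre alone on the wild-type allele the direction was the opposite, with 4 of the 54 above 0 and a median of -0.23, and the interaction had 51 above 0 and a median of 0.56. For the floxed allele 5 were above 0 without Cre, with a median of -0.22, and 48 with Cre in both arms, with a median of 0.28, and over both Cre states the median was 0.03. Protocadherin genes of a cluster lie side by side and some share exons, so they are not independent. Their lowest adjusted p was 0.159, for the interaction, and 0.218 for Egr1cKO against floxed controls (edgeR). Some were called when mice were left out. Without the second Egr1wtNesCre+ male 14 of the 54 were called with Cre in both arms and 16 for the interaction, and in females alone 1 and 7 were. With the GC index as a covariate their median for Egr1cKO against floxed controls was 0.15, with 43 of the 54 above 0. For the floxed allele it was -0.05 without Cre (21 above 0), 0.25 with Cre in both arms (47) and 0.12 over both Cre states (41). Cre alone then had a median of -0.17 with 4 above 0, and the interaction one of 0.32 with 48 above 0.

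**Figure D4:**
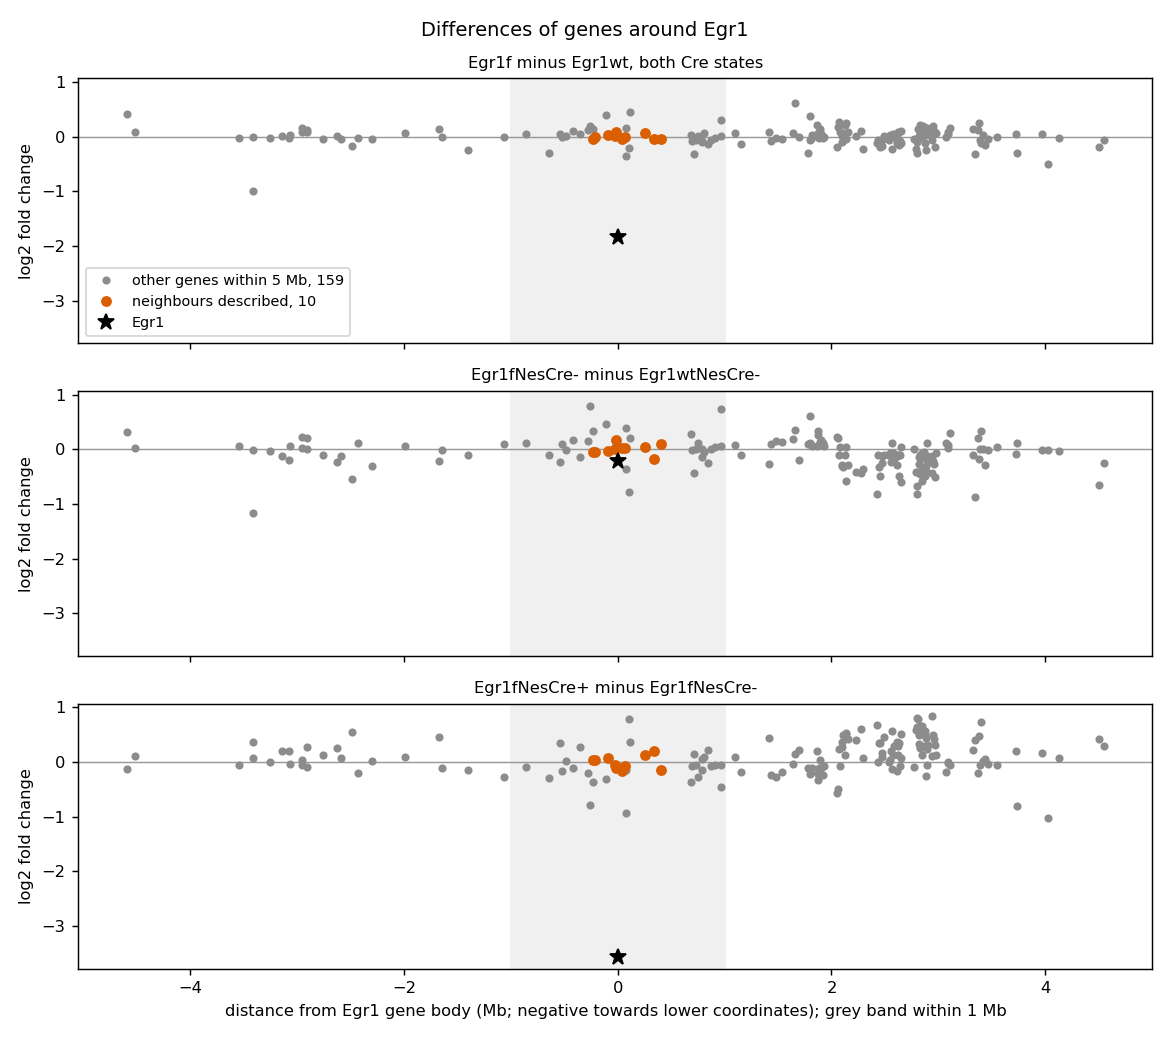
Log2 fold change (y axis) of the tested genes within 5 Mb of Egr1 by distance from it (x axis, Mb), for Egr1f against Egr1wt over both Cre states and for the floxed allele without Cre and Egr1cKO against its floxed control. Orange points are the 10 neighbours, grey points the other genes, the star is Egr1, and the grey band marks 1 Mb. The neighbours lie between -0.17 and 0.20 in all 3 panels, and the protocadherins, towards higher coordinates, lie mostly below 0 in the middle panel (49 of 54) and above 0 in the lower (48 of 54).

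Genes that work with the neighbours were taken as 8 lists of 63 genes, all of them tested and none on the member list. None was called in any of the 7 contrasts by edgeR. For Egr1cKO against floxed controls 15 of the 63 (23.8%) had an unadjusted p under 0.05, beside 15.4% of all genes, and over both Cre states 5 (7.94%) did, beside 5.5%.

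In the Egr1cKO contrast the catenins, the family of Ctnna1, had 3 of 6 genes at an unadjusted p under 0.05, with a median log2FC of 0.13. The chaperone system of Hspa9 and Sil1 had 2 of 9, with a median of -0.05. The anaphase promoting complex, to which Cdc23 belongs, had 0 of 15 and a median of -0.03. The TIP60 complex of Brd8 had 4 of 13 with values of both signs, the REEP family 1 of 5, the histone demethylases related to Kdm3b 1 of 6, and the translation termination factors that act with Etf1 1 of 3.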

How the data were processed

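Hippocampal RNA of 24 mice was measured. Non-stranded libraries were sequenced from both ends on a NovaSeq instrument. The authors used Trim Galore for trimming and STAR for mapping to mm10 and for quantification. The submitters' processing notes give Trim Galore 3.8.2 and STAR 2.7.9, versions other than those in the paper. The annotation used for counting is not given in the sources used here. The authors deposited raw counts per gene, without normalization, for 36605 Ensembl identifiers, of which 36493 had a position in GENCODE M21. No column was left unused.

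Groups came from the sample labels. Counts were tested in R 4.3.3 with edgeR 4.0.16 (TMM, filterByExpr with a minimum count of 10, quasi-likelihood F test) in 1 fit of all 24 mice, with 4 genotype means and sex, and with 8 group means for the dependence on sex. P-values were adjusted by Benjamini-Hochberg over all 19742 genes tested. A call required an adjusted p no higher than 0.05 together with a fold change no smaller than 1.2. Standard errors were derived from log2FC and F, taking F as the squared ratio of log2FC to its error. CPM used TMM factors. Mice of a group differed by more than sampling noise, so each was 1 replicate, and p-values measure the spread between mice. Alternatives were DESeq2 1.42.0, other scaling, no filter, no fold change minimum, no sex term, a replicate block, each sex alone, only the mice compared and each mouse left out. The code was tested on simulated data.

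Named genes are the 10 neighbours in every contrast, Egr1, Nnt, the nearest genes and the 6 genes most and least like the neighbour with the lowest p. Outside this rule, the 5 other genes called, genes that overlap a neighbour and the marker genes Fshb and Cga were named after their values were seen. The members and lists were chosen with earlier results of these data known. No sequence is printed, and the values of 1 list of partner genes are not reported here.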

Additional observations from a re-analysis of the deposited data

Results flagged for a closer look

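A single mouse stood far from the other 5 of its genotype in 4 of 44 sets of 6 levels (11 genes in 4 genotypes), where chance gives about 1 in 20. Etf1 was low in all 3 of its cases. It was at 72.9 CPM in the second Egr1wtNesCre- female, against 82.2 to 86.7 in the others, at 64.5 CPM in the first Egr1wtNesCre+ female, against 79.2 to 86.6, and at 64.9 CPM in the third Egr1fNesCre+ male, against 75.0 to 77.2. Ctnna1 was high, at 78.9 CPM, in the first Egr1wtNesCre+ female, against 47.1 to 58.9 in the others, and this is the mouse with the most choroid plexus markers. The effect of Cre on Egr1 differed between the alleles by -3.22 on the log2 scale, by the interaction test.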

How the results depend on the processing

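No neighbour was called in any contrast under any of the 31 to 35 alternatives run for each. The lowest adjusted p ranged by contrast from 0.0584 for the interaction to 0.919 for the dependence on sex. Counts over all genes moved more than the neighbours did. Without a filter on low counts edgeR called 82 genes for the floxed allele without Cre, 794 with Cre, 83 over both states, 803 for Egr1cKO against floxed controls, 175 for Cre alone, 1173 for the interaction and 145 for the dependence on sex. DESeq2 called 44 with Cre, 2 over both states, 55 for Egr1cKO, 10 for Cre alone, 228 for the interaction and 5 for sex. Females alone gave 295 with Cre, 6 over both states, 3 for Egr1cKO, 3 for Cre alone and 354 for the interaction. Males alone gave 1 each with Cre, over both states, for Egr1cKO and for the interaction. Without the 5 mice rich in choroid plexus markers 5 genes were called with Cre, 2 for Egr1cKO, and 1 each over both states and for the interaction. Leaving out each mouse gave 1 to 982 with Cre, 1 to 2 over both states, 3 to 25 for Egr1cKO, 0 to 2 for Cre alone, 1 to 1439 for the interaction and 0 to 1 for sex. The causes were not tested. Besides the second Egr1wtNesCre+ male, whose values stand above, the third Egr1fNesCre+ male moved the count with Cre to 98 and that for Egr1cKO to 20, and the first Egr1fNesCre- male moved the latter to 25 and the interaction to 15. The first and second Egr1fNesCre+ males moved the count with Cre to 6 and 2, the latter and the second Egr1wtNesCre- male that over both states to 2, and the second Egr1fNesCre- female and the third Egr1fNesCre+ female that for Egr1cKO to 3. The second Egr1wtNesCre+ and first Egr1fNesCre+ females moved the count for Cre alone to 1 and 2, and the third Egr1fNesCre- female that for sex to 1.

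Replicate numbers did not pair the mice. Same-numbered mice of different groups had a mean correlation of deviations of -0.003, against 0.002 for others. With a replicate block 0 neighbours were called in any contrast, and Lrrtm2 was at 0.20 (adjusted p = 0.247) for Egr1cKO against floxed controls.

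The precision is that of 6 mice a genotype: the intervals of the neighbours reached fold changes of 0.792 and 1.28 for Egr1cKO against floxed controls, and 0.685 and 1.41 for the interaction. Sil1, with 250 to 465 counts a mouse, had the least depth.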
